A study of Mus musculus with 8 samples.

Results

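Matricellular and wound matrix proteins are secreted glycoproteins that activated fibroblasts lay down around cells without building the load-bearing fibres themselves. The 10 genes Sparc, Sparcl1, Smoc2, Fn1, Tnc, Postn, Thbs1, Thbs2, Cthrc1 and Spp1 were taken by name for that role from a table of 54532 mouse genes. Earlier results of these data were known when they were chosen. Each of the 10 symbols matched 1 Ensembl identifier, and 10 of 10 had an FPKM (fragments per kilobase of exon and per fixed number of counted reads, which evens out gene length and depth) of at least 1 in at least 2 libraries, the condition for testing, which 12994 genes met.

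The RNA was taken at day 7 from cardiac fibroblasts of the mouse, which make the heart's connective tissue. EphrinB2-overexpressing cells in osteogenic differentiation medium, vector cells in osteogenic differentiation medium, EphrinB2-overexpressing cells in complete medium and vector cells in complete medium made up the 4 groups, with 2 libraries in each and 8 in all. EphrinB2, the product of Efnb2, sits in the cell membrane and binds Eph receptors on neighbouring cells, the vector is the control without it, and all cells shared the same labelled cell type and day. The labels do not say which promoter drives EphrinB2, what either medium contains or whether both libraries of a group were separate cultures. A p-value here therefore measures the spread of these 8 libraries alone, and part or all of that spread may be technical.

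Matricellular proteins bind collagen, growth factors and cell surface receptors such as integrins, and they tune how firmly cells attach and how matrix is assembled. Most are scarce in the resting adult heart and become abundant where fibroblasts repair a wound, for example in the scar after a myocardial infarction. Fibronectin forms the provisional matrix on which such repair starts.

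Steps in the low FPKM values put depth at 16493963 to 20550770 counted reads per library, and 11717 to 12125 genes reached 1 FPKM. Efnb2 stood at 5.02 and 18.3 FPKM in EphrinB2 libraries against 1.39 and 1.27 in vector libraries in osteogenic medium, and at 31.3 and 32.8 against 6.30 and 5.56 in complete medium. Every EphrinB2 library was above both vector libraries of its medium, but differences of 2.21 in osteogenic and 2.26 in complete medium on the log2(FPKM + 1) scale did not pass (limma, adjusted p = 0.567 and 1). Over the tested genes, partners (both libraries of a group) differed with an SD of 0.66 in EphrinB2 osteogenic and 0.52 in EphrinB2 complete libraries on the log2(FPKM + 1) scale, against 0.23 in vector osteogenic and 0.26 in vector complete libraries. The libraries standing apart were EphrinB2 osteogenic replicate 1 and EphrinB2 complete replicate 2. Their log2 differences from the mean of the vector libraries of their medium had an SD of 0.69 and 0.42, against 0.23 and 0.26 for their partners. All 12 fibroblast markers reached 1 FPKM in every library, among them Pdgfra and Col1a1. Of 16 macrophage markers 15 or 16 did so, with a sum of 8380 and 4172 FPKM in EphrinB2 osteogenic, 4693 and 4921 in vector osteogenic, 1808 and 879 in EphrinB2 complete and 2153 and 1890 in vector complete libraries. The sums of the endothelial, mural, cardiomyocyte and mesothelial markers stayed between 0.834 and 106 FPKM. Of 4 mesothelial markers tested Msln rose in osteogenic medium (2.25 in EphrinB2 and 2.19 in vector cells), and the others did not pass. Of the 9 cardiomyocyte markers Actn2 was at 0 in all 8 libraries, and Tnnt2, the 1 tested, rose in osteogenic medium (2.798 in EphrinB2 and 2.116 in vector cells). The cardiomyocyte sum was 15.4 and 8.67 FPKM in EphrinB2 osteogenic and 6.13 and 7.18 in vector osteogenic libraries, against 0.926 and 0.923 in EphrinB2 complete and 0.919 and 0.834 in vector complete libraries.

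The genomic windows just before the start sites give the sequence context of some of these genes. RefSeq promoter windows on GRCm38.p6 were matched by symbol for 5 of the 10 genes, Sparc, Postn, Thbs2, Tnc and Spp1, and those of 4 are shown, 1 window each, those of Postn, which fell in osteogenic medium in both kinds of cell, Tnc, which fell in EphrinB2 cells, and Thbs2 and Spp1, which did not pass in either. Each line gives the 250 bases before the start site, 5′ to 3′ on the strand of the gene. Capitals mark matches, on either strand, to 4 short motifs: the TATA box, spelled TATAAA, the box of NF-Y factors, spelled CCAAT, the box of SMAD factors, spelled CAGAC, and the GC box, spelled GGGCGG. No match overlaps another. Where RefSeq lists 2 start sites, the window nearer to the annotated gene start is shown.
Postn, chr3:54360857-54361106, plus strand: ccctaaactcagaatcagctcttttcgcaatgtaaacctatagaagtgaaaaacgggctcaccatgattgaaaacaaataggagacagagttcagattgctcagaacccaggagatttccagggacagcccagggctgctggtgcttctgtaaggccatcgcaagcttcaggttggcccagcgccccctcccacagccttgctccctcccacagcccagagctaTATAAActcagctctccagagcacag
Tnc, chr4:64047016-64047265, minus strand: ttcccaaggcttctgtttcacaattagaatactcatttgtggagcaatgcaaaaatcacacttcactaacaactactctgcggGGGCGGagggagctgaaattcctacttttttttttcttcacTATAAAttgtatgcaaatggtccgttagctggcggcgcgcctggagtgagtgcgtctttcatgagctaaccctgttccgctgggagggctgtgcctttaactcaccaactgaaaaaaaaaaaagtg
Thbs2, chr17:14694263-14694512, minus strand: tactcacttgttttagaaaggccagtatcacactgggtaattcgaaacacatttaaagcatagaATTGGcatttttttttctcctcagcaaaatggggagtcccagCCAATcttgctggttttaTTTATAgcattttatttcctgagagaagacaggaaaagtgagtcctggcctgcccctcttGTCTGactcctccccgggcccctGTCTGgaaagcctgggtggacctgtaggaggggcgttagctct
Spp1, chr5:104434861-104435110, plus strand: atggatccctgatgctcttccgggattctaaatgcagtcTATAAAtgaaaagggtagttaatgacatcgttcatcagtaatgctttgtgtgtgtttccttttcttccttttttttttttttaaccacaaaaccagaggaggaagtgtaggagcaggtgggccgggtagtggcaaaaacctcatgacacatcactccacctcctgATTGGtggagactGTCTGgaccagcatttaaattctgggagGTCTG
Counted back from the start site, the TATA box match began at -26 in Postn, at -126 in Tnc and Thbs2 and at -211 in Spp1. The NF-Y box had 2 matches in Thbs2 and 1 in Spp1, the SMAD box 2 in each of them, and the GC box 1 in Tnc. Of 32851 promoter windows of the same length, 12.4% held the TATA box, 33.9% the NF-Y box, 42.2% the SMAD box and 32.7% the GC box. Also searched on both strands were the AP-1 element, spelled TGANTCA and present in 6.75% of windows, the TEAD element, spelled GGAATG and present in 12.6%, and an arm of the glucocorticoid receptor element, spelled AGAACA and present in 16.1%. None of these had a match in the 4 windows shown. The Sparc window, not shown, belongs to a RefSeq start site inside the annotated gene, and it held the glucocorticoid receptor arm at -78 and -14 and the SMAD box at -35. These matches describe letters and not binding.

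Osteogenic medium went with lower levels of most of these genes. In EphrinB2 cells 2 of 10 rose, Sparcl1 and Smoc2, and 6 fell, Sparc, Fn1, Tnc, Postn, Thbs1 and Cthrc1 (limma, adjusted p below 0.05 over 12994 genes, where 11.8% of all tested genes passed). In vector cells the same 2 rose and 5 of these 6 fell, all but Tnc (7.52% of all tested genes passed). Both counts rest on 1 spread shared by all groups, which is narrower than the spread of the EphrinB2 libraries alone and wider than that of the vector libraries alone, so calls come too easily in EphrinB2 and too rarely in vector cells. The median log2 difference of the 10 genes was -1.20 in each kind of cell, beside 0.03 over all tested genes in EphrinB2 and -0.02 in vector cells. For 10 of 10 genes the osteogenic libraries did not overlap the complete ones in either kind of cell, 3 lying higher and 7 lower. Of all tested genes 47.9% in EphrinB2 and 73.2% in vector cells were likewise without overlap, so that count is read beside a high background. RNA of a whole culture does not tell fewer cells of a type apart from less RNA per cell.

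**Figure D1:**
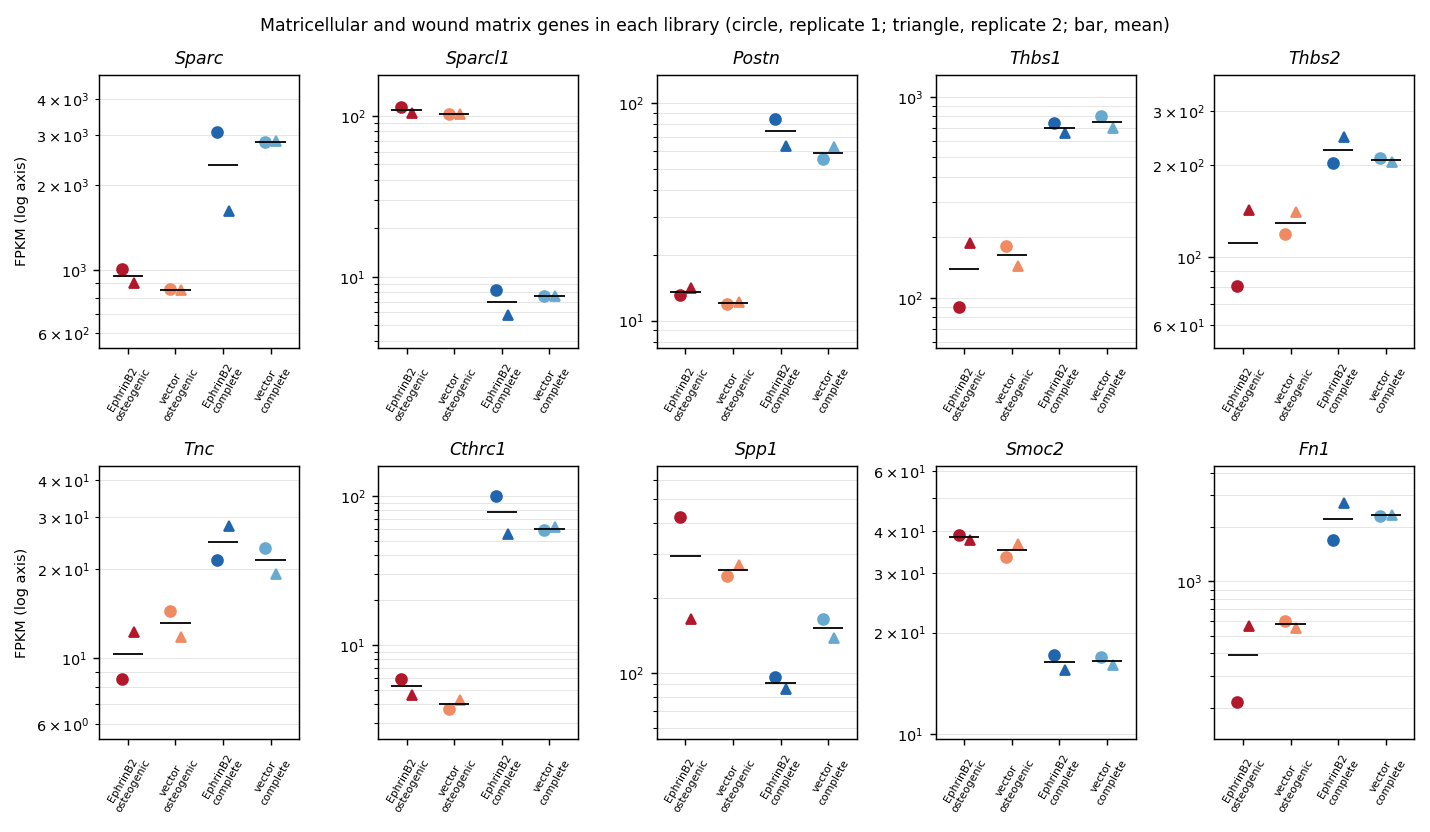
FPKM of each gene on a log axis, with 1 panel per gene, 4 groups along the horizontal axis, circles for replicate 1, triangles for replicate 2 and a bar at the mean of both libraries. In every panel both osteogenic groups lie on one side of both complete groups, above them for Sparcl1, Smoc2 and, more narrowly, Spp1, where EphrinB2 osteogenic replicate 2 at 165 FPKM sits almost level with vector complete replicate 1.

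The SPARC family shares a calcium-binding domain, through which Sparc binds collagen. Sparc itself, a collagen chaperone of fibroblasts and bone (ENSMUSG00000018593, GRCm38 chromosome 11, 55394500 to 55423183, minus strand), had 1009 and 899 FPKM in EphrinB2 osteogenic, 857 and 853 in vector osteogenic, 3059 and 1625 in EphrinB2 complete and 2824 and 2851 in vector complete libraries. EphrinB2 complete replicate 2 was the low library of its group, yet still above all 4 osteogenic libraries. Sparc fell by 1.23 on the log2 scale in EphrinB2 cells (SE 0.31, adjusted p = 0.0495) and fell by 1.73 in vector cells (SE 0.31, adjusted p = 0.020). In vector cells in complete medium it ranked 2 among all genes by FPKM in both libraries, and in vector cells in osteogenic medium 24. The call in EphrinB2 cells lies close to the threshold, and it was lost with a pseudocount of 0.1 (adjusted p = 0.0523) and with no filter on low values (adjusted p = 0.294).

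Sparcl1, also called hevin, is the closest relative of Sparc and weakens cell attachment (ENSMUSG00000029309, chromosome 5, 104079111 to 104113733, minus strand). It moved the other way. It had 113 and 104 FPKM in EphrinB2 osteogenic, 103 and 102 in vector osteogenic, 8.25 and 5.78 in EphrinB2 complete and 7.65 and 7.58 in vector complete libraries. The 4 osteogenic libraries lay within 102 to 113 FPKM, far above every complete library. Mean FPKM was higher in osteogenic medium, 15.5-fold in EphrinB2 and 13.5-fold in vector cells. On the log2 scale it rose by 3.79 in EphrinB2 cells (SE 0.19, adjusted p = 0.000179) and rose by 3.59 in vector cells (SE 0.19, adjusted p = 0.000230). In vector cells its rank among all genes was 352 and 355 in osteogenic medium and 5269 and 5293 in complete medium. Sparcl1 is known as a gene of blood vessel cells, and the 10 endothelial markers summed to between 9.45 and 14.3 FPKM in every library. Of the 3 tested, Cdh5 fell in both kinds of cell (-1.21 in EphrinB2 and -1.13 in vector cells). Pecam1 (-0.51 and -0.62) did not pass, nor did Tek, the most abundant of them (0.50 and 0.80, adjusted p = 0.137 and 0.0554). Tek had 7.51 and 10.98 FPKM in EphrinB2 osteogenic, 10.96 and 11.03 in vector osteogenic, 5.67 and 6.65 in EphrinB2 complete and 5.74 and 6.06 in vector complete libraries. The part of vessel cells in the Sparcl1 values was not tested.

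The ratio of Sparc to Sparcl1 therefore separated the media. It was 8.93 and 8.61 in EphrinB2 osteogenic and 8.34 and 8.34 in vector osteogenic libraries, against 371 and 281 in EphrinB2 complete and 369 and 376 in vector complete libraries. The ratio cancels the depth and the FPKM scale of each library, and the 4 osteogenic libraries differed among themselves by less than 1 unit.

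Smoc2, a SPARC-related protein of basement membranes (ENSMUSG00000023886, chromosome 17, 14279506 to 14404790, plus strand), had 39.0 and 37.5 FPKM in EphrinB2 osteogenic, 33.4 and 36.6 in vector osteogenic, 17.2 and 15.5 in EphrinB2 complete and 16.9 and 16.03 in vector complete libraries. Partners lay close together in all 4 groups, those with a library standing apart included. Smoc2 rose by 1.18 in EphrinB2 cells (SE 0.15, adjusted p = 0.00475) and rose by 1.04 in vector cells (SE 0.15, adjusted p = 0.00908). Its neighbour on chromosome 17 is Thbs2, 260709 bases away with 0 protein-coding genes between. The 2 genes lay on opposite sides, Smoc2 higher and Thbs2 lower in osteogenic medium, though Thbs2 did not pass in either kind of cell. Sparcl1 and Spp1 both lay higher in osteogenic medium, though Spp1 did not pass in either kind of cell. They lie on chromosome 5 with a gap of 321384 bases that holds the 4 bone and tooth matrix genes Dspp, Dmp1, Ibsp and Mepe. These 4 reached at most 0.112 FPKM in any library.

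Of the adhesive glycoproteins of the wound, Fn1 (fibronectin, ENSMUSG00000026193, chromosome 1, 71585520 to 71653200, minus strand) was the most abundant. It had 214 and 564 FPKM in EphrinB2 osteogenic, 604 and 555 in vector osteogenic, 1707 and 2732 in EphrinB2 complete and 2308 and 2341 in vector complete libraries. Both vector groups held together closely, and each EphrinB2 group had 1 library well below the other. Fn1 fell by 2.63 on the log2 scale in EphrinB2 cells (SE 0.46, adjusted p = 0.0152) and fell by 2.003 in vector cells (SE 0.46, adjusted p = 0.0488). Its exons, 11685 bases merged, are the longest of the 10 genes. With the vector libraries alone the adjusted p in vector cells was 0.000199, and it was 0.0524 with a pseudocount of 0.1, 0.190 with no filter and 0.0890 after scaling to TPM, in which every library has the same sum.

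Tnc (tenascin-C, ENSMUSG00000028364, chromosome 4, 63959785 to 64047015, minus strand) loosens cell attachment and appears in the border of healing tissue. It had 8.53 and 12.2 FPKM in EphrinB2 osteogenic, 14.5 and 11.8 in vector osteogenic, 21.4 and 28.0 in EphrinB2 complete and 23.6 and 19.3 in vector complete libraries. All osteogenic libraries were below all complete ones, by a narrow margin in vector cells. Tnc fell in EphrinB2 cells, by 1.18 (SE 0.24, adjusted p = 0.0238), while the difference in vector cells was -0.67 (SE 0.24, adjusted p = 0.175). That does not show that EphrinB2 and vector cells differ in this, since the interaction was -0.51 (SE 0.33, adjusted p = 0.746).

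Postn (periostin, ENSMUSG00000027750, chromosome 3, 54361109 to 54391037, plus strand) helps to cross-link collagen and marks activated fibroblasts of the injured mouse heart. It had 13.1 and 14.1 FPKM in EphrinB2 osteogenic, 12.0 and 12.2 in vector osteogenic, 84.7 and 63.8 in EphrinB2 complete and 55.6 and 62.7 in vector complete libraries. The osteogenic libraries sat together between 12.0 and 14.1 FPKM in both kinds of cell, and the spread was wider in complete medium. Postn fell by 2.36 in EphrinB2 cells (SE 0.18, adjusted p = 0.000936) and fell by 2.20 in vector cells (SE 0.18, adjusted p = 0.00125). Mean FPKM was lower in osteogenic medium by 5.47-fold in EphrinB2 and 4.90-fold in vector cells.

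The thrombospondins Thbs1 and Thbs2 bind the receptors Cd47 and Cd36, and Thbs1 also frees active TGF-beta from its latent form. Thbs1 (ENSMUSG00000040152, chromosome 2, 118111876 to 118127133, plus strand) had 90.0 and 187 FPKM in EphrinB2 osteogenic, 181 and 145 in vector osteogenic, 736 and 657 in EphrinB2 complete and 806 and 695 in vector complete libraries. Complete libraries lay between 657 and 806 FPKM and osteogenic ones between 90.0 and 187, and EphrinB2 osteogenic replicate 1 was the lowest of all 8. Thbs1 fell by 2.41 in EphrinB2 cells (SE 0.35, adjusted p = 0.00791) and fell by 2.20 in vector cells (SE 0.35, adjusted p = 0.0132).

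Thbs2 (ENSMUSG00000023885, chromosome 17, 14665500 to 14694235, minus strand) had 80.6 and 142 FPKM in EphrinB2 osteogenic, 119 and 140 in vector osteogenic, 202 and 247 in EphrinB2 complete and 210 and 204 in vector complete libraries. The order of media was that of Thbs1 with a smaller gap, and the differences of -1.06 in EphrinB2 cells (SE 0.29, adjusted p = 0.0636) and -0.68 in vector cells (SE 0.29, adjusted p = 0.264) did not pass. Their 95% intervals were -1.75 to -0.37 and -1.37 to 0.01. The ratio of Thbs1 to Thbs2 was 1.12 and 1.32 in EphrinB2 osteogenic and 1.52 and 1.03 in vector osteogenic libraries, against 3.64 and 2.66 in EphrinB2 complete and 3.83 and 3.40 in vector complete libraries, with no overlap between media.

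Cthrc1 (ENSMUSG00000054196, chromosome 15, 39076932 to 39087121, plus strand) is a secreted protein that marks collagen-producing fibroblasts of the infarct scar in mice. It had 5.93 and 4.62 FPKM in EphrinB2 osteogenic, 3.73 and 4.25 in vector osteogenic, 99.2 and 55.7 in EphrinB2 complete and 58.9 and 61.6 in vector complete libraries. Among the genes that fell this was the deepest difference, with mean FPKM lower in osteogenic medium by 14.7-fold in EphrinB2 and 15.1-fold in vector cells. Cthrc1 fell by 3.59 in EphrinB2 cells (SE 0.28, adjusted p = 0.000893) and fell by 3.62 in vector cells (SE 0.28, adjusted p = 0.000876). The estimated reads were still 115 and 131 in the vector osteogenic libraries, where it was lowest, so counting error is small beside the difference.

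Spp1 (osteopontin, ENSMUSG00000029304, chromosome 5, 104435118 to 104441050, plus strand) is an integrin and Cd44 ligand made by bone cells and by macrophages, and it slows the growth of mineral crystals. It had 426 and 165 FPKM in EphrinB2 osteogenic, 244 and 272 in vector osteogenic, 96.0 and 86.4 in EphrinB2 complete and 165 and 138 in vector complete libraries. EphrinB2 osteogenic replicate 1 was the highest of all 8 libraries and its partner the lowest in osteogenic medium. The differences of 1.53 in EphrinB2 cells (SE 0.41, adjusted p = 0.0609) and 0.77 in vector cells (SE 0.41, adjusted p = 0.399) did not pass, with 95% intervals of 0.55 to 2.52 and -0.22 to 1.76.

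Most macrophage markers lay higher in osteogenic medium, where Spp1 lay higher too. In osteogenic medium 13 of the 16 rose in EphrinB2 and 8 in vector cells, and 0 fell, with none at 0 FPKM in any library and medians of 1.70 and 1.28 on the log2 scale. Over all tested genes 11.8% passed in EphrinB2 and 7.52% in vector cells. Cd14, a receptor of myeloid cells, was the gene whose pattern over the 8 libraries was most like that of Spp1 among 2640 variable genes (Pearson's r = 0.979, a description over libraries that share 2 media). Cd14 had 39.2 and 17.4 FPKM in EphrinB2 osteogenic, 17.5 and 22.0 in vector osteogenic, 7.28 and 6.402 in EphrinB2 complete and 14.2 and 11.3 in vector complete libraries. Within osteogenic medium the markers did not all follow Spp1. EphrinB2 osteogenic replicate 1 was above both vector osteogenic libraries for Lyz2, C1qa, C1qb, C1qc, Cd14, Cd68, Itgam, Aif1 and Tyrobp. It was below both for Adgre1 (34.1 against 47.2 and 50.6 FPKM), Csf1r, Cd163, Mrc1, Mertk and Ptprc, and between them for Fcgr1. Lyz2 alone had 6061 FPKM in that library and is the largest part of the marker sum. The part of macrophages in the Spp1 values was not tested.

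**Figure D2:**
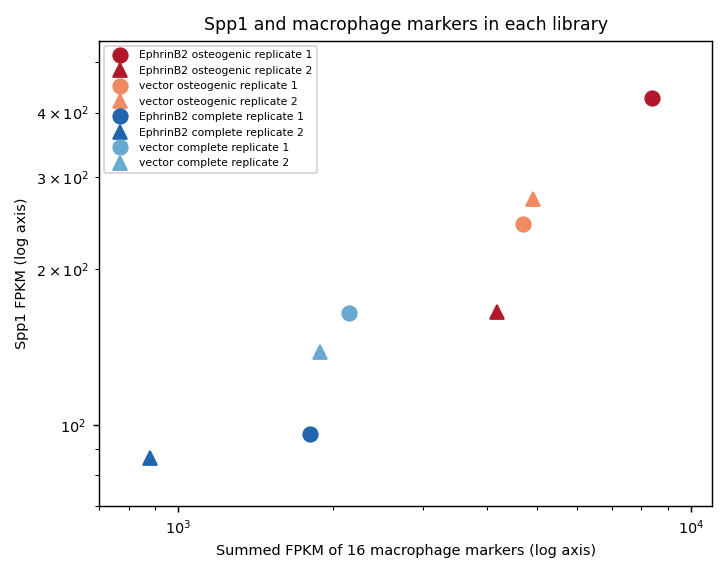
Spp1 FPKM against the summed FPKM of 16 macrophage markers, both on log axes, with 1 point per library, colours for groups, circles for replicate 1 and triangles for replicate 2. EphrinB2 osteogenic replicate 1 is highest on both axes, at 426 and 8380 FPKM, and EphrinB2 complete replicate 2 lowest on both, at 86.4 and 879. Both are the libraries standing apart. In their groups the partner difference went with exon length (Spearman's rho -0.51 and -0.44), and Spp1 and Lyz2 have short exons, 1648 and 1316 bases merged. The part of exon length in these 2 points was not tested.

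As a group the 10 genes took a much smaller share of the transcriptome in osteogenic medium. Their summed FPKM was 0.554% and 0.813% of the library's total in EphrinB2 osteogenic and 0.857% and 0.828% in vector osteogenic libraries, against 2.24% and 2.08% in EphrinB2 complete and 2.50% and 2.49% in vector complete libraries. Sparc and Fn1 made up most of that sum in complete medium, 43.6% and 35.6% of it in vector complete replicate 1. In EphrinB2 osteogenic replicate 1 Fn1 gave 10.7% of the sum, against 26.5% in its partner. That library also had the highest total, 360626 FPKM against 253613 to 269809 in the other 7, which lowers any share taken of it. The 12 fibroblast markers were lower in sum as well, at 3378 and 3081 FPKM in EphrinB2 osteogenic and 2942 and 3009 in vector osteogenic libraries, against 5467 and 6426 in EphrinB2 complete and 5388 and 5178 in vector complete libraries. Of these 12, 1 rose, Dcn, and 3 fell, Col1a1, Col1a2 and Col3a1, in each kind of cell, and the others did not pass. Among all tested genes 11.8% passed in EphrinB2 and 7.52% in vector cells. The 3 collagens carried the lower sum. They had 1456, 548 and 1942 FPKM in vector complete replicate 1, against 433, 265 and 585 in vector osteogenic replicate 1. The part of fibroblast content in the shares of the 10 genes was not tested.

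**Figure D3:**
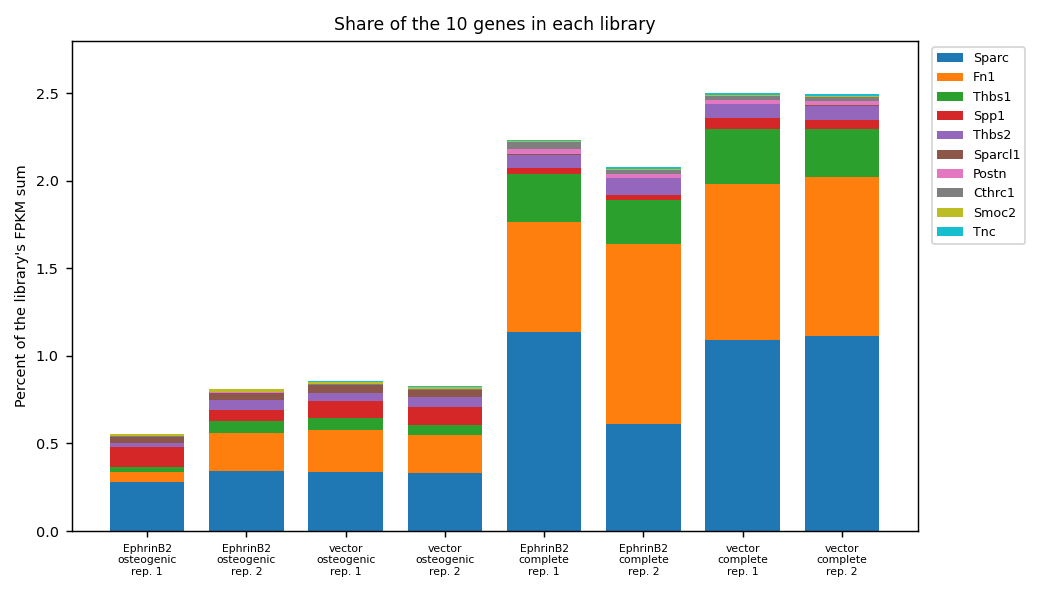
Stacked bars of the percent of each library's FPKM sum taken by each of the 10 genes, 1 bar per library. The 4 osteogenic bars end between 0.554% and 0.857%, the 4 complete bars between 2.08% and 2.50%, and Sparc and Fn1 form the largest segments in complete medium.

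Between EphrinB2 and vector cells 0 of the 10 genes passed in either medium (limma, where 0% of all tested genes passed in osteogenic and 0.0077% in complete medium). At an unadjusted p below 0.05 these comparisons held 0 of the 10 genes, beside 441 and 167 of all 12994. In osteogenic medium the EphrinB2 libraries lay without overlap above the vector libraries for 5 genes, with log2 differences of 0.16 for Sparc, 0.08 for Sparcl1, 0.16 for Postn, 0.32 for Cthrc1 and 0.13 for Smoc2, where 47.9% of all tested genes were without overlap in either direction; scaling to TPM turned the sign for Sparc, Sparcl1, Postn and Smoc2. The other 5 overlapped, at -0.32 for Thbs1, -0.27 for Thbs2, -0.33 for Tnc, 0.04 for Spp1 (negative after scaling to TPM) and -0.74 for Fn1, and adjusted p-values of the 10 ran between 0.567 and 0.962. In complete medium Postn lay higher in EphrinB2 cells, at 0.31 (95% interval -0.13 to 0.75), and Spp1 lower, at -0.72 (95% interval -1.71 to 0.26), both without overlap, as were 25.8% of all tested genes. The other 8 overlapped, and every adjusted p was 1.

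These intervals leave room for sizeable effects. For Fn1 the 95% interval in osteogenic medium was -1.83 to 0.36 on the log2 scale, and for Spp1 -0.95 to 1.03, whereas for Smoc2 and Sparcl1 it was -0.23 to 0.48 and -0.36 to 0.53. Without EphrinB2 osteogenic replicate 2, so with replicate 1 as the lone EphrinB2 library assumed to vary like the other groups, Thbs1 (-0.84, adjusted p = 0.0413), Spp1 (0.72, adjusted p = 0.0420) and Fn1 (-1.44, adjusted p = 0.0320) passed in osteogenic medium. Of all tested genes 21.1% passed there as well, so 3 of 10 lies near the background. Without replicate 1 instead, the same genes stood at 0.21, -0.64 and -0.04 with every adjusted p at 1. The EphrinB2 values of these 3 genes thus depended on which library was kept. The interaction, the difference of the medium effects between EphrinB2 and vector cells, had 0 of 10 genes past the threshold (limma, 0% of all tested genes, with 214 at an unadjusted p below 0.05), and ran between -0.63 for Fn1 and 0.76 for Spp1 with adjusted p-values of 0.746 to 0.982.

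**Figure D4:**
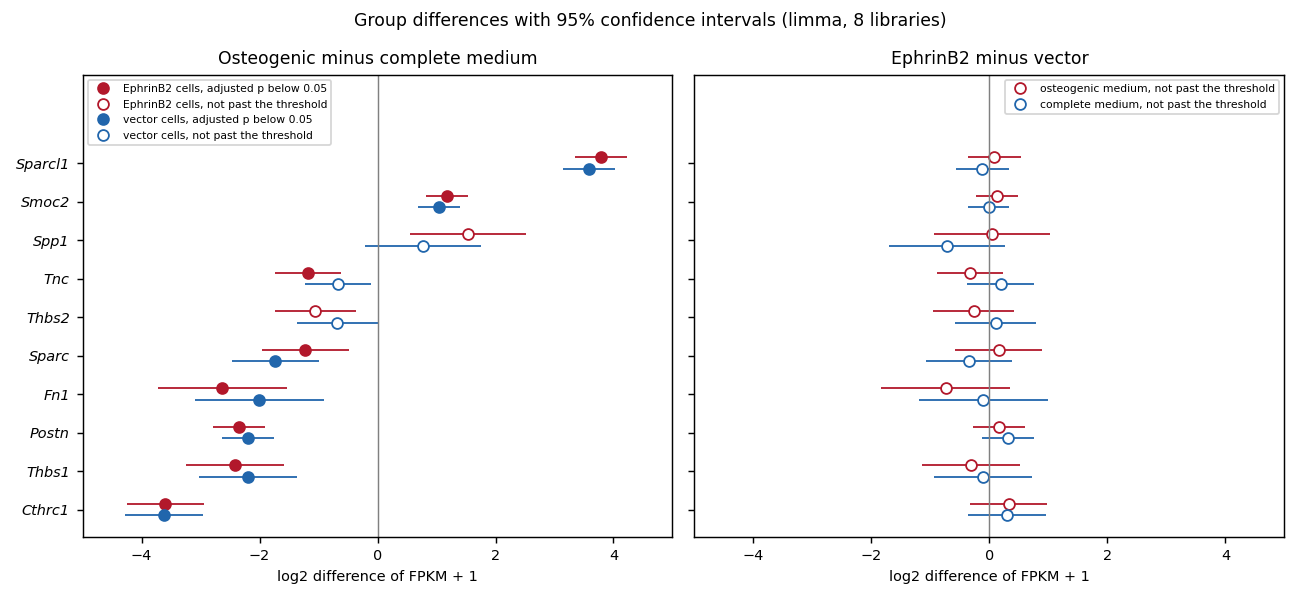
Log2 differences of FPKM + 1 with 95% confidence intervals from limma for the 10 genes, osteogenic minus complete medium on the left (red, EphrinB2 cells; blue, vector cells) and EphrinB2 minus vector on the right (red, osteogenic; blue, complete medium). Filled points passed the threshold: 8 red and 7 blue ones on the left and 0 on the right, where the intervals of all 10 genes cross 0 in both media.

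The gap between EphrinB2 partners was wider for some of these genes than for others. Partner differences, replicate 1 minus replicate 2, ran between -1.40 for Fn1 and 1.36 for Spp1 in EphrinB2 osteogenic and between -0.68 for Fn1 and 0.91 for Sparc in EphrinB2 complete libraries. In vector libraries they ran between -0.23 and 0.33 in osteogenic and between -0.17 and 0.28 in complete medium. Across 12990 genes with a length, which are not independent replicates, the partner difference went with exon length at a Spearman's rho of -0.51 in EphrinB2 osteogenic and -0.44 in EphrinB2 complete libraries, against 0.02 and -0.04 in vector libraries. Exons of Cthrc1 and Spp1 span 1593 and 1648 bases merged, those of the other 8 genes 2937 to 11685. The median was 1258 over all matched genes, most of which were not tested, so it is not the median of the genes in the trend. With the trend on length removed 10 of 10 genes passed in EphrinB2 cells, where 17.7% of all tested genes did, Thbs2 at -0.92 (adjusted p = 0.0250) and Spp1 at 1.08 (adjusted p = 0.0357) among them. Removing the trend also gave 8 in vector cells, where 12.3% of all tested genes passed, with Tnc at -0.69 (adjusted p = 0.0379).

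**Figure D5:**
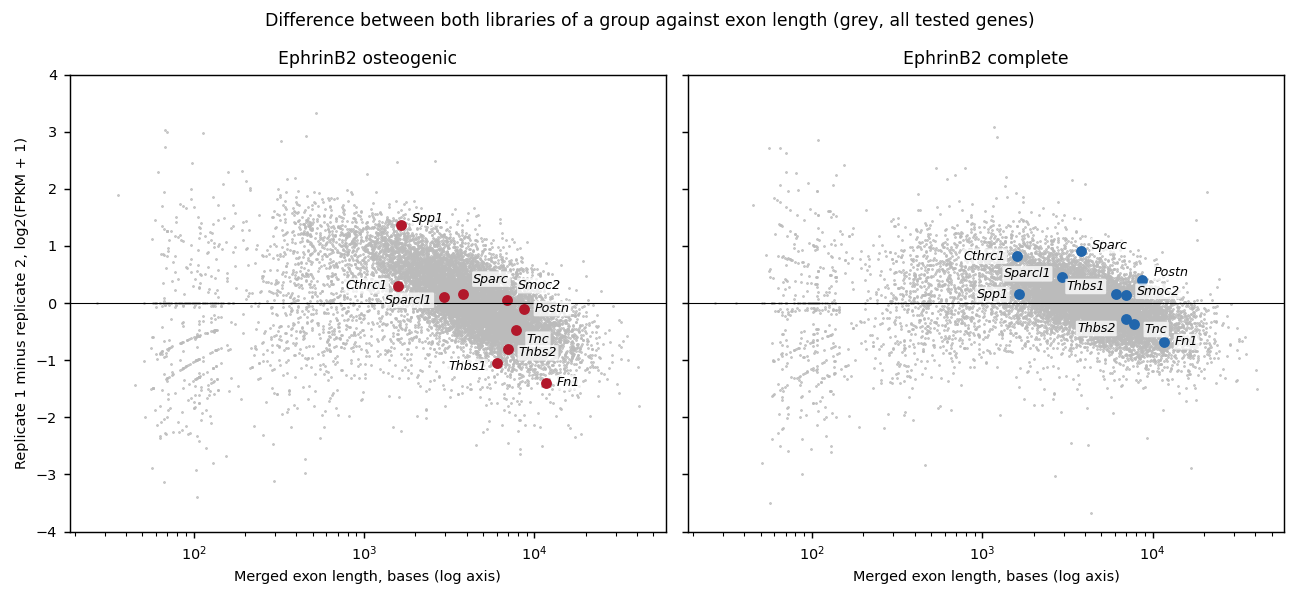
Log2(FPKM + 1) in replicate 1 minus replicate 2 against merged exon length on a log axis, for EphrinB2 osteogenic libraries on the left and EphrinB2 complete libraries on the right, with tested genes in grey and the 10 genes in colour. The cloud slopes down in both panels, and Fn1, with the longest exons of the 10, lies at -1.40 and -0.68, while Spp1 lies at 1.36 and 0.15.

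How many genes passed depended on which libraries set the spread. The 4 EphrinB2 libraries alone left Sparcl1, Postn and Cthrc1, 3 of 10, with 1.18% of all tested genes. Without both libraries standing apart 10 of 10 passed in EphrinB2 cells, with 29.7% of all tested genes and 1 library left in each EphrinB2 group. In vector cells 10 of 10 passed without both as well, and also with the 4 vector libraries alone, but 40.6% of all tested genes passed in each case. Leaving out any 1 vector library lost Sparc and Tnc in EphrinB2 cells, and it lost Sparc, Thbs1, Smoc2 and Fn1 in vector cells. Each of these runs left 1 library in a vector group. Far fewer of all tested genes passed in them too, in both kinds of cell, so the losses are not particular to these genes. In EphrinB2 cells Sparc was also lost without EphrinB2 complete replicate 1, Tnc and Fn1 without EphrinB2 complete replicate 2, and Sparc and Tnc without EphrinB2 osteogenic replicate 1. In vector cells Fn1 was lost without either EphrinB2 complete library, and the signs of all 10 medium differences held in both kinds of cell under each alternative run.

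Among 28 relatives of these proteins 17 were tested. In EphrinB2 cells 5 rose and 3 fell and in vector cells 4 rose and 3 fell, with medians of -0.08 and 0.04, beside 0.03 and -0.02 over all tested genes. Of all tested genes 11.8% passed in EphrinB2 and 7.52% in vector cells. Vit, a von Willebrand domain matrix protein (1.97 in EphrinB2 and 1.88 in vector cells), Emilin2, an elastic fibre glycoprotein (1.39 and 1.58), and Tgfbi, a fasciclin protein like periostin (1.24 and 1.34), rose. Smoc1, the closest relative of Smoc2, was at -1.33 and -1.38, Fstl1, a SPARC family glycoprotein, at -2.26 and -1.72, and Fbln2, a fibulin, at -1.99 and -1.57, and these 3 fell. Smoc1 had 16.8 and 20.4 FPKM in EphrinB2 osteogenic, 16.4 and 19.1 in vector osteogenic, 47.3 and 49.2 in EphrinB2 complete and 47.4 and 47.7 in vector complete libraries, opposite in direction to Smoc2.

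Of 22 receptors 20 were tested, and 2 rose and 7 fell in EphrinB2 cells and 3 rose and 3 fell in vector cells, with medians of -0.65 and -0.40. The share of all tested genes that passed was 11.8% in EphrinB2 and 7.52% in vector cells. The thrombospondin receptor Cd36 rose, by 1.29 and 1.28 in EphrinB2 and vector cells, as did Stab1, a scavenger receptor of macrophages and vessels that takes up SPARC (1.47 and 1.96). The collagen receptor subunit Itga11 fell (-2.87 and -2.38), as did Itgav, which pairs to bind osteopontin, fibronectin and periostin (-1.40 and -1.19). Itga8, another subunit for fibronectin and tenascin-C, stood at 1.27 in EphrinB2 cells (adjusted p = 0.0683) and rose in vector cells (1.95, adjusted p = 0.0225). Cd44 fell in EphrinB2 cells (-1.43) and stood at -0.93 in vector cells (adjusted p = 0.0568). For neither did the interaction pass (-0.68 for Itga8 and -0.49 for Cd44, adjusted p = 0.746 for both). The fibronectin receptor subunits Itga5 (-0.25 and -0.18) and Itgb1 (-0.40 and -0.14) did not pass in either.

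Of 28 regulators 27 were tested, with 3 up and 2 down in EphrinB2 cells, 3 up and 3 down in vector cells, and medians of -0.15 and -0.10. These counts are read beside the 11.8% of all tested genes that passed in EphrinB2 and the 7.52% in vector cells. The 3 that rose in both were the glucocorticoid-responsive genes Fkbp5 (3.94 and 3.85), Tsc22d3 (4.20 and 3.63) and Per1 (1.57 and 1.86). Tgfb2, a TGF-beta ligand that drives many of these matrix genes, fell as well (-1.76 and -1.38). Tgfb1 (-0.25 and -0.30) and Tgfb3 (0.12 and 0.33) did not pass. Between EphrinB2 and vector cells 0 genes of these 3 lists passed in either medium.

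The genes whose pattern over the 8 libraries was most like that of each member, by Pearson's r of log2(FPKM + 1) among 2640 genes with an SD of at least 0.5, mostly mirrored the media, since the libraries fall into 2 media. Postn went with elastin, Eln, at 0.999, Cthrc1 with Nrep at 0.998, Sparc with Kcne4 at 0.993, Thbs1 with Kazn at 0.997, Thbs2 with Nedd9 at 0.990, Tnc with Ptprb at 0.988 and Fn1 with Ptgfrn at 0.999. On the rising side Sparcl1 went with the transcription factor Klf15 and Smoc2 with Il22ra2, both at 0.999. Genes that overlap a member on the genome reached at most 1.28 FPKM, for 4930474M22Rik on the strand opposite to Smoc2. Whether reads were counted by strand is not stated in the labels, so reads of such pairs cannot be told apart.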

How the data were processed

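The authors deposited an FPKM value per library and Ensembl gene for all 8 libraries. The submitters' processing notes name build mm10 and the tools DESeq2 1.16.1, featureCounts 1.5.0-p3, HISAT2 2.0.5 and CASAVA. Annotation release and strand setting: not given in the sources used here. Gene symbols, coordinates and exon lengths (merged) were read from GENCODE M21 (GRCm38, the assembly behind mm10), with 54495 identifiers matched and 37 not. FPKM is no count, so no count model was run. Reads were estimated from FPKM multiplied by merged exon length, which came within 0.02 of whole multiples of 1 step for 98.1% to 98.3% of genes under 50 reads; such reads carry counting error only.

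The 12994 genes that reached FPKM 1 in at least 2 libraries were tested as log2(FPKM + 1), a scale that understates changes of low genes. One model with a mean for each of the 4 groups was fitted to all 8 libraries in limma 3.58.1 (R 4.3.3), with two-sided moderated tests, a mean-variance trend, 4 residual and 2.72 prior degrees of freedom, and Benjamini-Hochberg adjustment over all tested genes at a threshold of 0.05. Compared were both media (osteogenic against complete) in each kind of cell, EphrinB2 against vector cells within each medium, and their interaction. The model assumes 1 spread for all groups. Tested on simulated data in which each group kept its own spread, it recovered the sizes and nearly all signs of the changes put in. For the media in EphrinB2 cells it made far more false calls than the threshold allows, and it missed many of the changes put in. The changes were put only into genes above a low level. Noise was drawn for each gene on its own, without the trend on exon length seen between EphrinB2 partners. The simulation therefore cannot show how well sizes and signs are recovered under that trend. Replicates were numbered in listed order and not paired. The medium comparisons share no library with each other, but each shares libraries with the EphrinB2 comparisons. Both medium comparisons use the 1 spread estimated from all 8 libraries, so their p-values are not independent of each other.

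The members, the lists of relatives, receptors, regulators and cell markers, and the tests were chosen with earlier results of these data known. Named by rule were all 10 members, Efnb2, 10 further genes of the pathway (Tgfb1, Tgfb2, Tgfb3, Fkbp5, Tgfbi, Cd44, Itgav, Itga5, Itgb1 and Stab1), up to 4 genes past the threshold per list and comparison, smallest p first, and the gene most like each member. Other genes named (markers, genes between Sparcl1 and Spp1, overlapping genes) were chosen after their values were seen. Alternatives changed the pseudocount to 0.1, dropped the filter, set library medians equal, removed the trend on exon length, dropped the mean-variance trend, used only the 4 libraries compared, left out libraries, or scaled to TPM, the last chosen after seeing the data. Promoter windows came from RefSeq on GRCm38.p6.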

Additional observations from a re-analysis of the deposited data

How the results depend on the processing

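In each medium comparison the signs of all 10 differences held under every alternative run. The number of genes past the threshold was 8 in EphrinB2 cells, 5 with no filter, 3 with the EphrinB2 libraries alone and 6 to 10 when 1 library was left out; it was 7 in vector cells, 4 with no filter and 3 to 9 when 1 library was left out. The share of all tested genes moved too, to 3.51% in EphrinB2 and 2.47% in vector cells with no filter, and over 4.89% to 43.8% in EphrinB2 and 1.3% to 13.5% in vector cells when 1 library was left out; 10 of 10 came with the 43.8%. Between EphrinB2 and vector cells it was 0 to 3 in osteogenic medium when 1 library was left out, and 0 in complete medium and for the interaction under every alternative. No filter gave more genes to adjust over (29961) and also changed the genes from which the spread was estimated. The cause of the changed counts was not tested for any alternative. Dropping both EphrinB2 libraries standing apart retains those closer to vector cells, which can shrink EphrinB2 differences, and leaves 1 library in each EphrinB2 group, assumed to vary like the vector libraries. After scaling to TPM the median difference of all tested genes was -0.19 for EphrinB2 against vector in osteogenic medium, against 0.007 before. It was -0.12 for the media in EphrinB2 cells, against 0.03 before, and -0.16 for the interaction, against 0.0003 before. Without the filter, 14 genes passed for EphrinB2 against vector in osteogenic medium, 13 in complete medium and 22 for the interaction, 0 of them among the 10.

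Differences that turned sign did not pass before or after. For EphrinB2 against vector in osteogenic medium, removing the trend on length gave -0.076 for Sparcl1 and -0.26 for Spp1; TPM gave -0.11 for Sparc, -0.18 for Sparcl1, -0.089 for Postn, -0.22 for Spp1 and -0.13 for Smoc2; and dropping both libraries standing apart gave 0.21 for Thbs1, 0.14 for Thbs2 and -0.64 for Spp1. In complete medium that last alternative gave 0.11 for Sparc, 0.10 for Sparcl1, -0.035 for Thbs2 and 0.056 for Smoc2. For the interaction it gave -0.036 for Sparc, -0.077 for Sparcl1, 0.23 for Thbs1, 0.17 for Thbs2, -0.54 for Cthrc1 and 0.41 for Fn1, while the length trend gave 0.089 for Postn and -0.35 for Cthrc1, and TPM gave -0.011 for Sparcl1, -0.14 for Cthrc1 and -0.066 for Smoc2. When 1 library was left out, EphrinB2 against vector in osteogenic medium ran over -0.84 to 0.21 for Thbs1, -0.67 to 0.14 for Thbs2 and -0.64 to 0.72 for Spp1. In complete medium it ran over -0.80 to 0.11 for Sparc, -0.34 to 0.10 for Sparcl1, -0.035 to 0.25 for Thbs2, -0.11 to 0.71 for Cthrc1, -0.087 to 0.056 for Smoc2 and -0.44 to 0.23 for Fn1. The interaction ran over -0.021 to 0.43 for Sparcl1, -0.36 to 0.044 for Postn, -0.73 to 0.31 for Thbs1, -0.78 to 0.027 for Thbs2, -0.39 to 0.43 for Cthrc1 and -1.33 to 0.068 for Fn1. No paired analysis was possible because no label gives replicate numbers shared between groups. Depth limits little here, since every member had at least 115 estimated reads in every library.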
